A study of Mus musculus with 30 samples.

Results

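Aminoacyl-tRNA synthetases (ARSs) join each amino acid to its tRNA, and the mRNAs of these enzymes were followed in mouse spermatogonial stem cell (SSC) lines. Members were taken from a list of 36 gene symbols, 20 for cytosolic enzymes and 16 for mitochondrial enzymes, whose symbols end in 2. Of the 36 genes, 35 were present in the RNA-seq table or the half-life tables, which together hold 14558 genes, and Aars2 was in none of them. An RNA level was given for 17 cytosolic and 15 mitochondrial enzymes. A half-life was given for 15 cytosolic and 7 mitochondrial enzymes. Hars, Lars and Nars had a half-life and no RNA level in the table used here.

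The study asked how NANOS2, an RNA-binding protein of SSCs, acts on its transcripts, and the lines carry a tagged Nanos2 allele (TAG) made of V5, Myc, a PreScission site, His and EGFP at the N terminus of the protein. One line (line 4) was Nanos2 TAG/+ and so kept 1 untagged allele, and the other (line 5) was Nanos2 TAG/TAG. Both were derived from P7 testes of mice of mixed DBA/2J and C57Bl/6 background and were grown on fibroblast feeders, which were depleted before RNA was isolated. By the study's methods, RNA for sequencing came from SSCs that were then sorted by flow cytometry, with a scatter gate set against remaining feeders. Neither line was treated, apart from the 4-thiouridine labelling used for SLAM-seq. RNA-seq was performed on 1 library per line, from total RNA without ribosomal RNA, extracted with QIAzol from the TAG/+ line and with Trizol from the TAG/TAG line, so that genotype, line and reagent cannot be told apart. SLAM-seq, which follows the loss of 4-thiouridine from mRNA during a chase, comprised 12 libraries per line (6 chase times from 0 to 1440 min, 2 technical replicates each) and gave 1 half-life per transcript and line. The authors treated the lines as biological replicates for half-life.

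With 1 library and 1 half-life per line there is no replicate to test over, and no p-value is given. Levels are FPKM, that is read counts scaled to transcript length and library depth. The reads behind each FPKM could be recovered, at depths of 10908790 (TAG/+) and 11738620 (TAG/TAG) reads, and log2 differences are given with a 95% counting interval, which covers counting error only. Markers of undifferentiated spermatogonia were present in both libraries. Among them were Nanos2 (27.5 FPKM in TAG/+ and 23.8 in TAG/TAG), Gfra1 (56.2 and 111), Etv5 (46.0 and 178), Ret (73.2 and 181), Zbtb16 (107 and 102) and Id4 (1.76 and 1.59). Of the 11 such markers in the table, Gfra1, Ret and Etv5 were more than 1.5-fold higher in TAG/TAG and 0 lower. Over all genes, the shares past 1.5-fold were 22.8% higher and 19.4% lower. Among genes with 500 reads or more in each library, a limit that Gfra1, Ret and Etv5 passed, 7.97% were higher and 8.62% lower. The 4 listed markers of differentiating spermatogonia summed to 67.3 FPKM in TAG/+ and 52.2 in TAG/TAG. Of these 4, Kit (38.5 and 30.7), Stra8 (8.21 and 6.18) and Sohlh1 (16.9 and 10.4) were lower in TAG/TAG, and Dmrtb1 (3.67 and 4.86) was higher. Only Sohlh1 passed 1.5-fold, beside 19.4% of all genes lower by more than that. Markers of fibroblasts were present as well, in spite of the sort. Their sum over the 12 of 15 listed genes in the table was 418 FPKM in TAG/+ and 567 in TAG/TAG, of which Fn1 made up 254 and 280. Of these 12 genes, 6 were more than 1.5-fold higher in TAG/TAG, including Sparc (73.9 and 158), and 0 lower, beside 22.8% and 19.4% of all genes. Thbs1 (24.5 and 20.5) and Col3a1 (7.10 and 6.79) were lower, within 1.5-fold. Of 7 markers of testis somatic cells, 3 were in the table and summed to 9.33 and 25.3 FPKM. Wt1 (2.51 and 19.6 FPKM) and Sox9 (2.19 and 4.49) were higher in TAG/TAG, and Star (4.62 and 1.20) was lower. In bulk RNA, fewer cells of a type and less RNA per cell cannot be told apart.

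Cells hold separate sets of ARSs for the cytosol and for mitochondria, both encoded in the nucleus. Most amino acids have a gene for each compartment, while Gars and Kars encode the glycyl- and lysyl-tRNA synthetases of both compartments. Several cytosolic enzymes assemble with the scaffold proteins Aimp1, Aimp2 and Eef1e1 into the multisynthetase complex. Genes of many cytosolic enzymes, and of amino acid synthesis and transport, are known targets of ATF4, the transcription factor of the amino acid response, which binds elements containing TGATGNAA.

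The letters TGATGNAA, or TTNCATCA on the other strand, were searched in RefSeq promoter windows of build GRCm38.p6, from 250 bases before to 50 bases after each annotated start. A window was given for 13 of 20 cytosolic and 14 of 16 mitochondrial genes, matched by symbol or synonym. The letters were found in 5 of the 13 cytosolic genes (38.5%), namely Aars, Gars, Iars, Tars and Yars, and in 0 of the 14 mitochondrial genes. Over all genes with a window they were found in 1219 of 27025 (4.51%), and over all windows in 3.97%. All 5 genes were on the list of known ATF4 targets, of which 8 had a window, and none of the 5 other cytosolic genes with a window held the letters. Cars, Hars, Lars, Nars, Rars, Vars, Wars, Hars2 and Pars2 had no window in the table. A match describes the sequence and does not show that a factor binds there.

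The sites of 4 of these cytosolic genes are shown because no window of a mitochondrial enzyme held one. Each is written 5′ to 3′ along the gene with the matching letters in capitals.
Gars, chr6:55037960-55037989 on the + strand, before the start: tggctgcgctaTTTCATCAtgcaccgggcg
Iars, chr13:49682126-49682155 on the + strand, after the start: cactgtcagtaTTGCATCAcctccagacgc
Tars, chr15:11399655-11399684 on the - strand, before the start: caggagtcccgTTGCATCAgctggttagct
Yars, chr4:129189895-129189924 on the + strand, after the start: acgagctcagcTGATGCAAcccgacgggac
The letters began 30 bases before the start in Gars and 15 in Tars. In Gars, Iars and Tars the letters read TTNCATCA along the gene, and in Yars they read TGATGCAA. The sites of Iars, Tars and Yars hold TGATGCAA or its complement TTGCATCA, and that of Gars holds TTTCATCA.

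The same letters were held by 8 of the 24 other amino acid response genes with a window (33.3%), namely Trib3, Chac1, Asns, Pycr1, Slc7a11, Atf3, Nupr1 and Vldlr, and by 0 of the 3 scaffold genes. Among these 8 genes, the log2 FPKM difference (TAG/TAG over TAG/+) was -0.58 for Trib3, -0.16 for Pycr1, -0.31 for Slc7a11 and -2.04 for Vldlr (22 and 3 reads). It was 0.24 for Chac1 (32 and 41 reads), 0.22 for Nupr1 (19 and 24 reads), 1.53 for Asns and 1.61 for Atf3 (9 and 33 reads). The counting interval held 0 for Pycr1, Slc7a11, Chac1 and Nupr1. Among Trib3, Vldlr, Asns and Atf3, whose intervals did not hold 0, both directions occurred. For comparison with the cytosolic enzymes, the sites of Asns and Atf3, both higher in TAG/TAG, are given.
Asns, chr6:7693214-7693243 on the - strand, before the start: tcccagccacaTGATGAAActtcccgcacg
Atf3, chr1:191183425-191183454 on the - strand, before the start: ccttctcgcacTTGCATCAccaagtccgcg
Longer stretches, the 120 bases before the start, are shown for Gars and Tars, whose letters lie there.
Gars, chr6:55037881-55038000, + strand: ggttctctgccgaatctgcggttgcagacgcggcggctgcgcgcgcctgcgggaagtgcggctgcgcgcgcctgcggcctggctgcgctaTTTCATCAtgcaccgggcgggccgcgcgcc
Tars, chr15:11399659-11399778, - strand: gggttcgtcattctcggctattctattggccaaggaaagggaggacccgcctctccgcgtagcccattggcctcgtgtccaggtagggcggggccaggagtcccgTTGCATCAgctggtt

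Cytosolic enzymes had higher RNA levels than mitochondrial enzymes in both lines. The median was 91.4 FPKM for the 17 cytosolic enzymes and 13.9 FPKM for the 15 mitochondrial enzymes in TAG/+ (a ratio of 6.56), and 73.3 and 10.1 FPKM in TAG/TAG (a ratio of 7.29). The median over all 13904 genes was 10.2 FPKM in TAG/+ and 10.5 FPKM in TAG/TAG. All 17 cytosolic enzymes were above that median in both lines, against 10 of 15 mitochondrial enzymes in TAG/+ and 7 of 15 in TAG/TAG. The classes overlapped, and 4 mitochondrial enzymes in each line had a higher FPKM than the lowest cytosolic enzyme. In TAG/TAG, Sars2 and Vars2 also exceeded the cytosolic median, which no mitochondrial enzyme did in TAG/+.

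The size of the difference between the classes depended on the length used. The deposited FPKM divides the reads by the mean length of all annotated transcripts of a gene, which includes short fragments (1072 bases for Qars, against 2800 bases for its principal coding transcript). With reads per kilobase of 1 principal coding transcript per gene, the ratio of the medians was 2.84 in TAG/+ and 4.48 in TAG/TAG. All levels given here are FPKM as deposited unless the principal transcript is named.

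**Figure D1:**
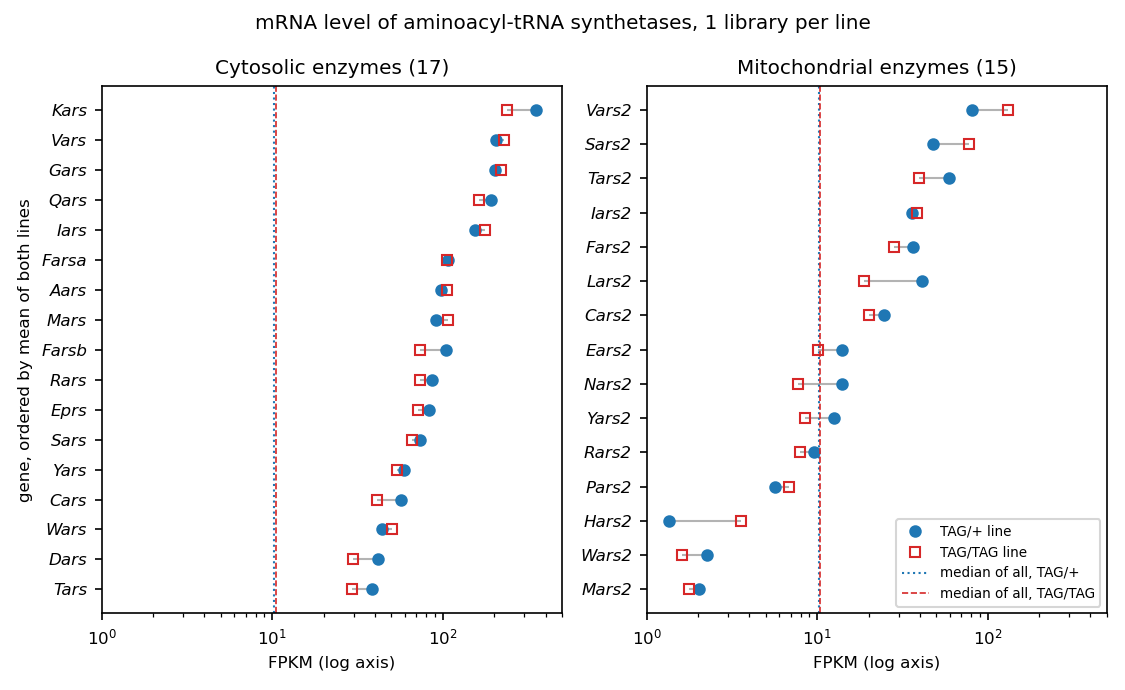
FPKM (log axis) of each aminoacyl-tRNA synthetase gene in the TAG/+ line (filled circles) and the TAG/TAG line (open squares), 1 library each, with cytosolic enzymes on the left, mitochondrial enzymes on the right and vertical lines at the median of all genes. All 17 cytosolic enzymes lie to the right of the lines, while the 15 mitochondrial enzymes spread from 1.35 to 131 FPKM on both sides of them.

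Kars had the highest level of the cytosolic enzymes, with 352 FPKM in TAG/+ and 239 in TAG/TAG. Vars, which charges the tRNA of valine, had 205 and 228 FPKM, and Gars had 202 and 218 FPKM. In each line Vars and Gars differed by less than either differed between the lines. Qars (193 and 163 FPKM) and Iars (155 and 176 FPKM), the glutaminyl- and isoleucyl-tRNA synthetases, came next and changed places between the lines.

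By the mean of both lines, the lowest cytosolic enzymes were Tars, the threonyl-tRNA synthetase (38.3 FPKM in TAG/+ and 29.5 in TAG/TAG), Dars, the aspartyl-tRNA synthetase (41.5 and 29.6 FPKM), and Wars, the tryptophanyl-tRNA synthetase (44.2 and 50.5 FPKM). Tars and Dars could not be ordered in TAG/TAG, where they differed by less than 0.1 FPKM. Even these 3 genes were above 71.8% of all genes in each line. The remaining 9 cytosolic enzymes lay between 41.2 FPKM (Cars in TAG/TAG) and 108 FPKM (Farsa in TAG/+). They were Aars, Cars, Eprs, Farsa, Farsb, Mars, Rars, Sars and Yars.

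Cytosolic enzymes of the multisynthetase complex overlapped in level with the others, with a higher median in both lines. The 7 complex enzymes with an FPKM (Eprs, Iars, Mars, Qars, Rars, Kars and Dars) had a median of 91.4 FPKM in TAG/+ and 107 in TAG/TAG, and the 10 others had 85.3 and 69.5 FPKM. In TAG/+ the complex enzymes ranged from 41.5 FPKM (Dars) to 352 FPKM (Kars), and the others from 38.3 to 205 FPKM. The ranges in TAG/TAG were 29.6 to 239 FPKM and 29.5 to 228 FPKM. The 10 enzymes on the ATF4 list had a median of 78.1 and 68.8 FPKM, and the 7 that were not on it had 108 and 105 FPKM.

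As a fold range, the mitochondrial enzymes spread far more widely than the cytosolic enzymes. In TAG/+ they ran from 1.35 to 80.4 FPKM, against 38.3 to 352 FPKM for the cytosolic enzymes. Vars2 was highest, with 80.4 FPKM in TAG/+ and 131 in TAG/TAG, and next by the mean of both lines were Sars2 (47.6 and 77.8 FPKM) and Tars2 (59.1 and 39.6 FPKM). These enzymes charge valine, serine and threonine tRNAs. Vars2 was above 93.2% of all genes in TAG/TAG. At the other end were Mars2 (2.03 and 1.78 FPKM), Wars2 (2.25 and 1.62 FPKM) and Hars2 (1.35 and 3.58 FPKM), the mitochondrial methionyl-, tryptophanyl- and histidyl-tRNA synthetases. The low values of Wars2 rested on 53 and 41 reads and those of Hars2 on 19 and 54 reads, so that these levels are imprecise.

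Mars2 has a single exon of 11294 bases, most of it a 3′ UTR of 9470 bases, and its low FPKM came from 250 reads in TAG/+ and 236 in TAG/TAG. The other 9 mitochondrial enzymes ranged from 5.63 FPKM (Pars2 in TAG/+) to 41.1 FPKM (Lars2 in TAG/+). Of these, Iars2 (35.9 and 38.4 FPKM), Fars2 (36.5 and 28.3), Cars2 (24.6 and 20.0) and Lars2 were above the median of all genes in both lines. Ears2 (13.9 and 10.1 FPKM), Nars2 (13.9 and 7.69) and Yars2 (12.6 and 8.46) were above it in TAG/+ and below it in TAG/TAG. Pars2 and Rars2 were below it in both.

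Some exons are shared with other genes, and whether reads were counted by strand is not given in the sources used here. Of the exonic bases of Iars2, 22.9% are also exonic in Rab3gap2 on the other strand, and of those of Aars, 14.3% in Exosc6 on the same strand. The shares were 9.47% for Farsb (with Sgpp2), 8.72% for Fars2 (with Nrn1) and 8.52% for Vars2 (with the antisense gene Gm20483). Of the exonic 50-mers of each member examined, at least 93.0% occurred once in the genome.

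The cytosolic and mitochondrial enzymes of the same amino acid were then compared directly, within each library. Of 13 pairs with an FPKM for both genes, the cytosolic enzyme was higher in both lines in 11. Eprs and Fars2 each occur in more than 1 of these pairs, and without the pairs sharing them the count was 7 of 9. The median ratio was 4.33 in TAG/+ and 4.57 in TAG/TAG. The widest gap was that of Mars over Mars2, 45.0-fold in TAG/+ and 60.2-fold in TAG/TAG, and the next that of Wars over Wars2, 19.6-fold and 31.2-fold. Per kilobase of the principal transcript this order turned, with Mars over Mars2 at 27.1 and 36.3 and Wars over Wars2 at 39.4 and 62.7.

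**Figure D2:**
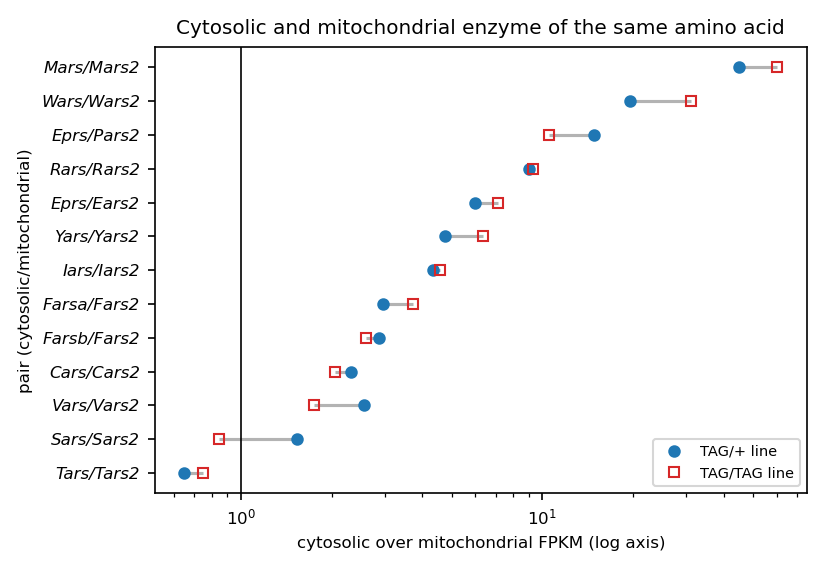
Ratio of cytosolic to mitochondrial FPKM (log axis) for the 13 pairs of genes whose enzymes charge the same amino acid, in the TAG/+ line (filled circles) and the TAG/TAG line (open squares). The pairs to the right of the line at 1 have more cytosolic mRNA, and Tars/Tars2 lies to the left of it in both lines.

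Threonine was the exception in both lines. Tars had 38.3 FPKM and Tars2 59.1 FPKM in TAG/+, a ratio of 0.649, and 29.5 against 39.6 FPKM in TAG/TAG, a ratio of 0.745. Sars over Sars2 was 1.53 in TAG/+ and 0.847 in TAG/TAG, and so changed direction between the lines. The narrowest of the other gaps were those of Vars over Vars2 (2.55 and 1.75) and Cars over Cars2 (2.32 and 2.06). On the principal-transcript scale the cytosolic enzyme was again higher in 11 pairs, Tars over Tars2 was 0.483 and 0.555, Sars over Sars2 was 0.969 and 0.534, and Cars over Cars2 was 1.13 and 1.00.

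Half-lives of the cytosolic enzymes lay above those of most transcripts. The median was 333 min in TAG/+ and 332 min in TAG/TAG over 15 enzymes, against 224 and 226 min over all 5806 transcripts. All 15 were above the median of all transcripts in TAG/+, and 14 in TAG/TAG, where Tars (254 min in TAG/+ and 191 min in TAG/TAG) fell below it. The 7 mitochondrial enzymes had medians of 265 and 272 min, with 5 above the median of all transcripts in TAG/+ and 4 in TAG/TAG. The cytosolic median was therefore 67.9 min longer in TAG/+ (a ratio of 1.26) and 60.0 min longer in TAG/TAG (1.22). The size depended on the members and the summary: it was 39.4 min in TAG/+ and 139 min in TAG/TAG with means, 52.7 and 155 min with half-lives up to 540 min, and 41.2 and 53.9 min without Gars and Kars. Over the members that also had an FPKM, a choice made after seeing the data, it was 54.5 and 90.0 min.

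**Figure D3:**
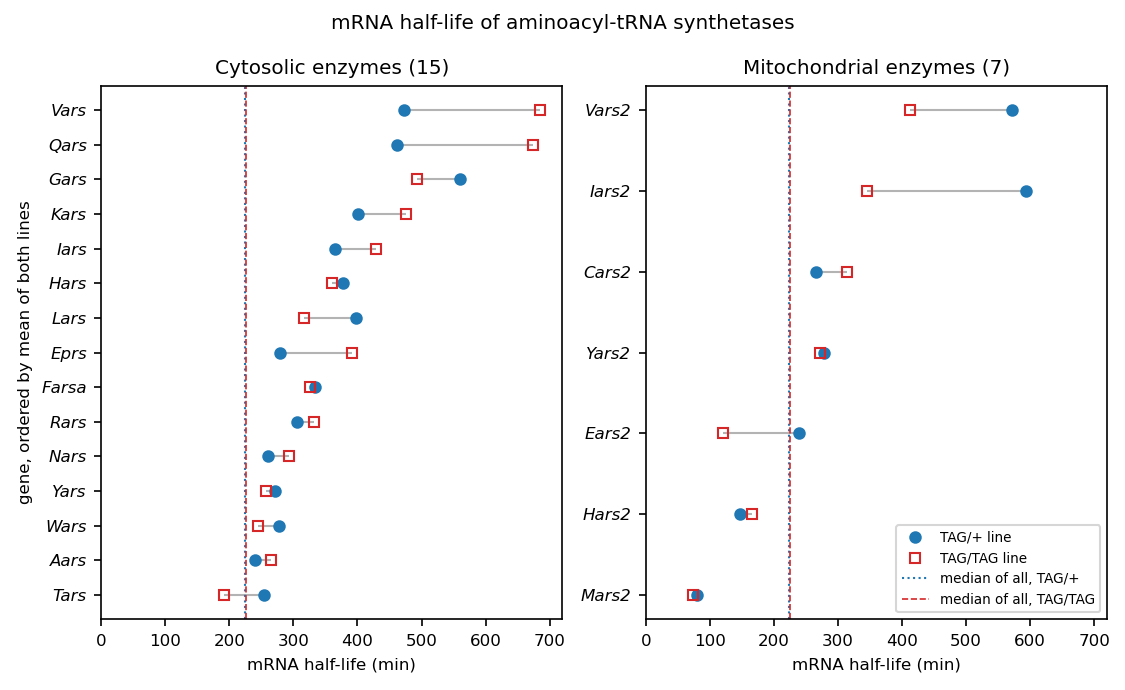
Half-life (min) of each aminoacyl-tRNA synthetase mRNA in the TAG/+ line (filled circles) and the TAG/TAG line (open squares), 1 fitted value per line, with vertical lines at the median of all transcripts. Cytosolic enzymes lie at or to the right of the lines apart from Tars in TAG/TAG, and mitochondrial enzymes spread from 73.0 to 593 min.

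By the mean of both lines, the longest-lived cytosolic mRNAs were those of Vars (472 min in TAG/+ and 685 min in TAG/TAG), Qars (461 and 673 min) and Gars (560 and 494 min). Which of them came first depended on the line, with Gars longest in TAG/+ and Vars in TAG/TAG. By the mean of both lines, the shortest-lived were those of Tars, Aars, the alanyl-tRNA synthetase (241 and 265 min), and Wars (277 and 244 min). Between them by the mean lay Kars (402 and 475 min), Iars (364 and 428 min), Hars (377 and 361 min), Lars (397 and 317 min), Eprs (279 and 392 min), Farsa (333 and 326 min), Rars (306 and 332 min), Nars (260 and 294 min) and Yars (272 and 257 min). Cars, Dars, Farsb, Mars and Sars had no half-life in the tables.

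Enzymes of the multisynthetase complex had the longer median half-life within the cytosolic class. The median was 381 min in TAG/+ and 410 min in TAG/TAG over 6 complex enzymes, and 277 and 294 min over the 9 others. Both groups overlapped, with Gars, Vars, Hars and Farsa of the second above the shortest-lived complex enzyme in each line. The 9 enzymes on the ATF4 list had a median of 277 and 294 min, and the 6 that were not on it had 389 and 418 min. The lists share members, and these are descriptions of few genes. Of the 5 genes with TGATGNAA named above, Aars, Tars and Yars were among the 5 shortest mean half-lives of the 15, while Gars and Iars were among the 5 longest.

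Mitochondrial enzymes held the short extreme in both lines and the long one in TAG/+. Mars2 had the shortest half-life of all members, with 80.6 min in TAG/+ and 73.0 min in TAG/TAG, within the lowest 3.24% of transcripts in both lines. Next by the mean of both lines were Hars2 (146 and 166 min) and Ears2 (240 and 121 min), and Ears2 was the shorter of the pair in TAG/TAG. Vars2 (572 and 413 min) and Iars2 (593 and 345 min) were the longest-lived of the class and exceeded the cytosolic median in both lines. Yars2 (279 and 272 min) and Cars2 (265 and 314 min) lay between.

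Of the 5 same-amino-acid pairs with both half-lives, the cytosolic mRNA was longer-lived in both lines for histidine (Hars over Hars2 by 230 min in TAG/+ and 194 min in TAG/TAG) and glutamate (Eprs over Ears2 by 39.0 and 271 min). Yars was shorter-lived than Yars2 in both lines, with differences of -7.24 and -15.1 min, and Yars itself differed by -14.6 min between the lines. The isoleucine and valine pairs changed direction. Iars minus Iars2 was -229 min in TAG/+ and 83.7 min in TAG/TAG, and Vars minus Vars2 was -100.0 and 273 min.

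Levels and half-lives of the members went together. Over the 19 members with both values, Spearman's rho was 0.647 in TAG/+ and 0.858 in TAG/TAG. Over the 12 cytosolic enzymes it was 0.839 and 0.860, and over all 5152 genes with both values 0.505 and 0.454. These are descriptions across genes, which are not independent replicates, and the points of a line share its RNA-seq library and its SLAM-seq libraries. Vars, Gars, Qars and Kars were high in both measures, and Mars2 and Hars2 low in both.

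**Figure D4:**
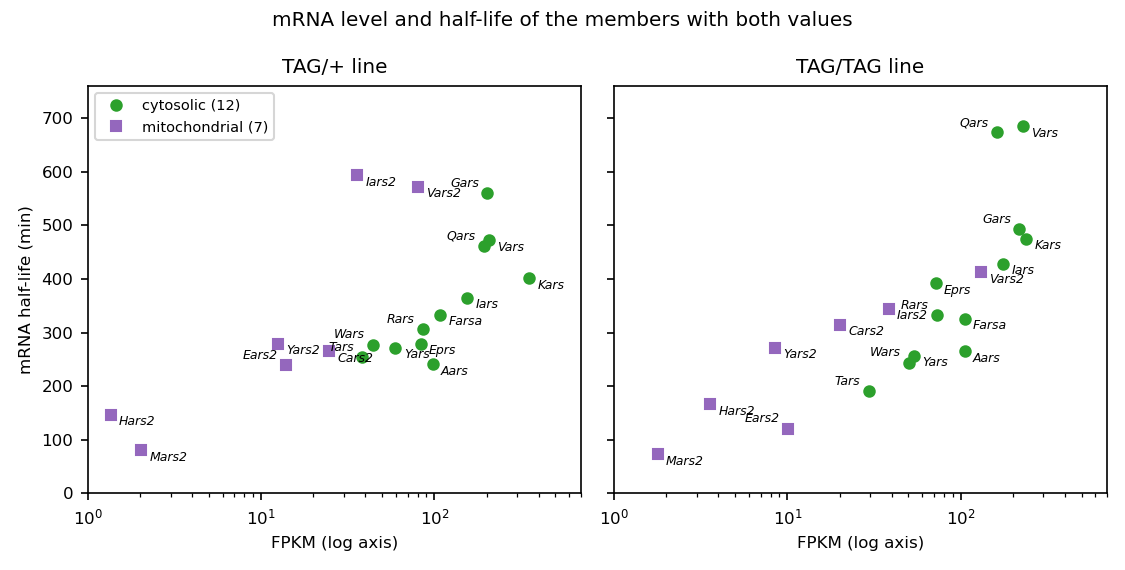
FPKM (log axis) against half-life (min) of the 12 cytosolic (circles) and 7 mitochondrial (squares) enzymes with both values, in the TAG/+ line (left) and the TAG/TAG line (right). Points rise from Mars2 and Hars2 at the lower left to Vars, Qars, Gars and Kars at the upper right, and Iars2 stands above the other genes of its level in TAG/+ at 593 min.

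In level, none of the 17 cytosolic enzymes was more than 1.5-fold higher (a log2 difference of 0.58) or lower in TAG/TAG. Over all genes, 22.8% were more than 1.5-fold higher in TAG/TAG and 19.4% lower. Low counts widen those shares, and among the 3967 genes that had 500 reads or more in each library, a limit that all 17 cytosolic enzymes passed, 7.97% were higher and 8.62% lower. Over these 3967 genes the median absolute log2 difference was 0.27, so most of them also stayed within 1.5-fold. The median log2 difference of the cytosolic enzymes was -0.15, with 6 above 0 and 11 below, against 0.01 over all genes. The values ran from -0.56 for Kars (counting interval -0.62 to -0.50), just inside the 1.5-fold limit, to 0.23 for Mars (0.14 to 0.32).

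Kars (6078 reads in TAG/+ and 4437 in TAG/TAG), Farsb (-0.52, 1387 and 1042 reads) and Dars (-0.49, 749 and 574 reads) were the furthest below 0. Farsb is the beta subunit of the phenylalanyl-tRNA synthetase, and its partner subunit Farsa had a log2 difference of -0.03, with 108 FPKM in TAG/+ and 105 in TAG/TAG. Mars, Wars (0.19) and Iars (0.18) were the furthest above 0. The 5 genes with TGATGNAA in their windows fell on both sides, with Aars at 0.11, Gars at 0.11, Iars at 0.18, Yars at -0.15 and Tars at -0.38.

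Among the 15 mitochondrial enzymes, 3 were more than 1.5-fold higher in TAG/TAG and 2 lower, that is 5 of 15 in either direction, near the shares of all genes given above. Only 4 of the 15 (Iars2, Sars2, Tars2 and Vars2) reached 500 reads in each library, and Sars2 and Vars2 were among them. Hars2 had 1.35 FPKM in TAG/+ and 3.58 in TAG/TAG, a log2 difference of 1.34 (0.62 to 2.24) from 19 and 54 reads. Sars2 went from 47.6 to 77.8 FPKM (0.71, interval 0.58 to 0.84) and Vars2 from 80.4 to 131 FPKM (0.70, interval 0.60 to 0.80). Lars2, the mitochondrial leucyl-tRNA synthetase, was lower in TAG/TAG, with 41.1 and 18.9 FPKM (-1.12, interval -1.29 to -0.95) from 899 and 445 reads. Nars2, for asparagine, had 13.9 and 7.69 FPKM (-0.85, interval -1.14 to -0.57).

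The counting interval lay wholly beyond 1.5-fold for 3 genes, Hars2, Vars2 and Lars2. Tars2 (-0.58, 876 and 632 reads), Yars2 (-0.57, 185 and 134 reads) and, in the other class, Kars were just inside the limit. The interval held 0 for 5 mitochondrial enzymes (Iars2, Mars2, Pars2, Rars2 and Wars2) and for 2 cytosolic enzymes (Farsa and Yars), whose levels were not distinguishable between the libraries at this depth. Summed fibroblast and testis somatic markers were also higher in the TAG/TAG library, with Star going the other way, as were Etv5 and Ret of the spermatogonial markers, and their part in these differences was not tested.

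**Figure D5:**
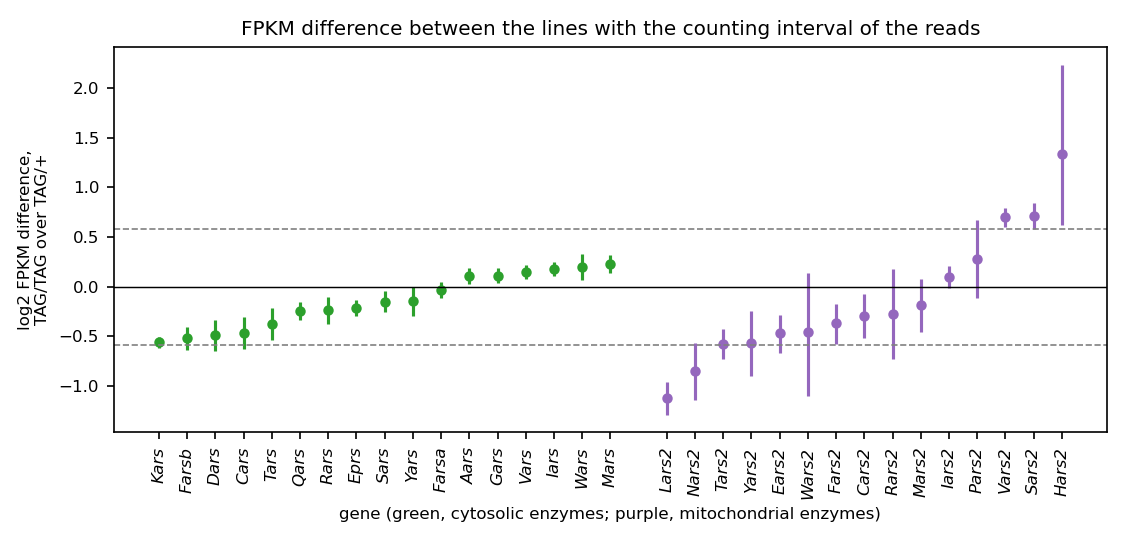
Log2 FPKM difference (TAG/TAG over TAG/+, y axis) of the 17 cytosolic (green) and 15 mitochondrial (purple) enzymes, with points at the difference, vertical bars for the 95% counting interval of the reads and dashed lines at 1.5-fold. All cytosolic points lie between the dashed lines, whereas Lars2 and Nars2 lie below them and Vars2, Sars2 and Hars2 above.

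Half-lives of the cytosolic enzymes likewise stayed within 1.5-fold between the lines, in 15 of 15. Over all transcripts, 10.0% were more than 1.5-fold higher in TAG/TAG and 10.7% lower. The largest log2 differences were 0.55 for Qars, 0.54 for Vars and 0.49 for Eprs, and on the other side -0.41 for Tars and -0.33 for Lars. Of the 7 mitochondrial enzymes, 2 were more than 1.5-fold lower, Ears2 from 240 to 121 min (-0.99) and Iars2 from 593 to 345 min (-0.78). Vars2 (-0.47) was lower as well and Cars2 (0.24) higher, both within the limit. The half-life tables give no error, so the precision of these values is unknown.

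Level and half-life differences are set side by side for the members past 1.5-fold in either. Vars2 had a higher FPKM and a shorter half-life in TAG/TAG, and Ears2, whose half-life went down to 121 min, had a log2 FPKM difference of -0.47 (13.9 and 10.1 FPKM). Iars2 had a log2 FPKM difference of 0.10. Lars2, Nars2 and Sars2 had no half-life in the tables, and that of Hars2 differed by 0.19 on the log2 scale.

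The scaffolds of the multisynthetase complex differed in level from each other by more than an order of magnitude. Aimp2 had 326 FPKM in TAG/+ and 367 in TAG/TAG (0.17), while Kars, its binding partner, had 352 and 239 FPKM (-0.56). Of the exonic bases of Aimp2, 29.4% are also exonic in Eif2ak1. Eef1e1 had 80.2 and 50.4 FPKM (-0.67) and Aimp1 had 26.1 and 14.2 FPKM (-0.87). Thus 2 of 3 scaffolds were more than 1.5-fold lower in TAG/TAG, as were 19.4% of all genes. Among genes with 500 reads or more in each library, a limit that Eef1e1 passed and Aimp1 did not, 8.62% were lower. Half-lives of the 3 scaffolds were 283 to 434 min in TAG/+ and 239 to 415 min in TAG/TAG. These were in the range of the cytosolic enzymes and within 1.5-fold between the lines.

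Of the 22 amino acid response genes with an FPKM, 4 were more than 1.5-fold higher in TAG/TAG and 3 lower, beside 22.8% and 19.4% of all genes. Asns, the asparagine synthetase, had 28.7 FPKM in TAG/+ and 83.1 in TAG/TAG (1.53), and the amino acid transporter Slc7a5 had 224 and 346 FPKM (0.63). The transcription factors Atf5 (2.92 and 9.06 FPKM) and Atf3 (9 and 33 reads) were higher too. Lower were Ddit4, an inhibitor of mTORC1 (54.3 and 18.1 FPKM), Cebpg (11.0 and 5.94 FPKM) and Vldlr (22 and 3 reads). Atf4 itself had no FPKM in the table, and its half-life was 92.4 min in TAG/+ and 99.8 min in TAG/TAG, shorter than that of any cytosolic synthetase. Of 14 half-lives in the list, that of Trib3 was more than 1.5-fold lower (126 and 82.8 min), beside 10.7% of all transcripts.

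Other genes of translation are given for scale. The 5 cytosolic elongation factors had a median of 1013 FPKM in TAG/+ and 689 in TAG/TAG, about an order of magnitude above the cytosolic enzymes. Of these 5, Eef1a1 (9186 and 5800 FPKM, -0.66) was more than 1.5-fold lower in TAG/TAG. So were 19.4% of all genes and 8.62% of genes with 500 reads or more in each library, a limit that Eef1a1 passed. The differences of the other elongation factors ran from -0.56 for Eef1g to -0.01 for Eef1d, whose counting interval of -0.10 to 0.08 held 0. Their median half-life was 472 and 512 min, with none past 1.5-fold. The 13 mitochondrial translation factors had a median of 13.6 and 10.2 FPKM, close to the mitochondrial enzymes. Of these 13, Tufm (175 and 263 FPKM) and Gatc (5.36 and 9.72 FPKM) were more than 1.5-fold higher in TAG/TAG, and Mtif2 (11.5 and 4.42 FPKM), Mtif3 (18.4 and 11.1), Mtrf1 (3.95 and 0.850), Mtrf1l (4.11 and 2.61) and Qrsl1 (18.1 and 10.2) lower, beside 22.8% and 19.4% of all genes. Some of these levels rest on few reads, 82 and 19 for Mtrf1, 57 and 39 for Mtrf1l and 176 and 73 for Mtif2. The counting interval of Mtrf1l was -1.28 to -0.04. Of the 4 half-lives of mitochondrial translation factors, Gfm1 (177 and 104 min) and Mtif3 (152 and 71.0 min) were more than 1.5-fold lower and Mtrf1l (92.5 and 209 min) higher, beside 10.7% and 10.0% of all transcripts.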

How the data were processed

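Values of mouse SSC lines were analysed from 3 tables that the authors deposited. FPKM values were computed by the authors for 1 RNA-seq library per line, and the submitters' processing notes name kallisto and DESeq2 without a version or role. The column of each line was identified from its name (GG for TAG/TAG, Gp for TAG/+). Reads were recovered from FPKM with the mean length of the GENCODE M21 transcripts of each gene, and 100% of 13875 genes gave whole reads within 0.05. The depths named in the report are those to which FPKM was scaled, and the recovered counts sum to 10933369 (TAG/+) and 11631682 (TAG/TAG). Half-lives in minutes were deposited as 1 value per transcript and line, fitted by the authors with SlamDunk conversion rates and a first-order decay, after technical replicates were collapsed. The 4 CRAC libraries were not analysed here.

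FPKM differences are log2((TAG/TAG + 0.1)/(TAG/+ + 0.1)), a scale that understates the change of low genes, with an exact (Clopper-Pearson) 95% interval of the read ratio, and half-life differences are log2 ratios. A 1.5-fold change is a rule of size and not a test. The read recovery and the ratios were tested on simulated data. Members described with their values were chosen by a rule: the 3 highest and 3 lowest members of each class, the 3 largest differences in each direction, the members of pairs a statement turns on, and other listed genes past 1.5-fold. Members, gene lists and the rule were chosen with earlier results of these data known. Python 3.11.15, numpy 2.4.6, pandas 2.3.3, scipy 1.17.1 and matplotlib 3.10.9 were used. The promoter sequence of 1 gene that held the letters is not reported here.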

Additional observations from a re-analysis of the deposited data

How the results depend on the processing

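Under the alternatives tried, the cytosolic enzymes kept the higher median level and the longer median half-life in both lines. Of the recomputed values for the main comparisons, 52 moved by less than the spread between the lines (for log2 medians, less than 0.1) or stayed within 1.5 times their count, and 22 moved by more. Some of the 52 could not move. The limits on FPKM and on unique 50-mers left out no member, because the lowest values were 1.35 FPKM and 93.0%. Lars2 had no half-life to leave out. A count of 0 past 1.5-fold cannot rise at 2-fold or with fewer members. The ratio of cytosolic to mitochondrial median FPKM (6.56 in TAG/+ and 7.29 in TAG/TAG) was 7.37 and 10.5 over members with a half-life and 2.84 and 4.48 per kilobase of the principal transcript, and in TAG/TAG 7.92 without Lars2 and 6.65 as geometric means. The difference of the median half-lives (67.9 and 60.0 min) was 52.7 and 155 min with half-lives up to 540 min, 41.2 and 53.9 min without Gars and Kars, 39.4 and 139 min as means, and 54.5 and 90.0 min over members with an FPKM. With half-lives up to 540 min, the median log2 half-life difference of the mitochondrial enzymes went from -0.14 to -0.035 and 1 enzyme, not 2, was lower past 1.5-fold. At 2-fold, 1 mitochondrial enzyme had a higher FPKM (not 3), 1 a lower FPKM (not 2) and 0 a shorter half-life (not 2), and without Lars2 1 had a lower FPKM. Without the pairs sharing Eprs or Fars2, the cytosolic enzyme had the higher FPKM in 7 pairs, not 11, of 9 and the longer half-life in 1 of 4, not 2. Another pseudocount (1) and centring on the median changed no count of enzymes past 1.5-fold. The principal-transcript length (for classes and for pairs, where 11 pairs again had the higher cytosolic level), the limit of 500 reads, leaving out Lars2 for the difference between the lines and keeping members with an FPKM for half-lives were chosen after seeing the data. No paired analysis was possible because the values come from 1 library or 1 fit per line and from no test. Depth limits Hars2, Wars2, Rars2 and Pars2, which had under 150 reads in each library.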
